A study of Mus musculus with 4 samples.

Results

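The genes described here are 53 markers of blood cells outside the lymphoid lineage: 23 of granulocytes, monocytes and macrophages, 9 of mast cells and basophils, 9 of megakaryocytes and platelets, and 12 of erythroid cells. They were chosen by name, with earlier results of these data known. Their probes were read on 4 two-colour Agilent expression arrays, each of which compares 2 labelled RNAs by competitive hybridisation. A probe was matched for 52 of the 53 among 20972 genes with a symbol, and none was matched for the macrophage gene Cd68. The cells were mouse fetal liver cultures of mixed C57BL/6J x CD-1 background, all transduced with p185 BCR-ABL1, the fusion kinase of acute lymphoblastic leukaemia, and isolated as lines that had become immortal. The wild-type (WT) lines carried normal Cdk4 and Cdk6, and the R/R lines were homozygous for the knock-in alleles Cdk4 R24C and Cdk6 R31C. These substitutions make both cell-cycle kinases insensitive to INK4 inhibitors. RNA came from asynchronous cultures in RPMI 1640.

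On 3 arrays an R/R clone (1, 2 or 3) carried the Cy5 dye and a WT pool the Cy3 dye. The fourth array compared an R/R pool with the WT pool, with the dyes exchanged, so its ratio was turned before use. Each clone is 1 line, the labels call the clones biological replicates, and clones 1 and 2 share the first number of their identifiers. What the pools held is not given in the sources used here. As the same WT pool was on all 4 arrays, the spread given below is that between R/R lines, and the tests take in no spread between WT lines.

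Blood cells descend from shared progenitors, and transcription factors steer the branches. PU.1 and the C/EBP family drive granulocyte and macrophage genes, and GATA2 acts in mast cells. GATA1 with TAL1 and FOG1 drives megakaryocytes and red cells, and KLF1 completes the erythroid programme. Fetal liver is the main site of red cell and granulocyte production before birth, while p185 BCR-ABL1 favours outgrowth of early B cells, in which PAX5 and EBF1 hold the other programmes down.

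The labelled origin was set against markers of the B lineage. All 11 B-lineage genes reported here (Cd79a, Cd79b, Pax5, Ebf1, Vpreb1, Igll1, Rag1, Rag2, Blnk, Cd24a and Il7r) were well above background in all 8 channels of the 4 arrays. Of 8 stem and progenitor genes 4 met the detection rule given below (Flt3 and Ly6a in both genotypes, Slamf1 and Hlf in WT), and 4 did not (Kit, Cd34, Procr and Mecom). Of 10 T and NK genes 6 met it (Cd3e, Cd4, Lck, Zap70, Klrb1c and Nkg7). Of all genes with a symbol 58.6% met the rule. Between 42.8% and 53.4% of spots per channel were well above background, no spot was saturated, and 210 to 265 spots per array were flagged and left out.

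Most of the lineage markers gave little or no signal in either genotype. Well above background is the scanner software's own test of a spot against its local background, and a gene counted as detected when its brightest probe passed on 3 or more of the 4 arrays in one of the genotypes. By this rule 22 of 52 markers were detected (42.3%), against 58.6% of all genes with a symbol. At the other end, 25 of 52 (48.1%) passed in no channel at all, against 33.2% of all genes. The remaining 5 (Prtn3, Cd14, Tyrobp, Gp1bb and Slc4a1) passed on single arrays. All 22 were detected in the WT channel and 19 of them in the R/R channel, where Camp, Gp9 and Gata1 fell short. The share of all genes detected in each genotype was not measured.

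The markers that passed in no channel included products typical of each lineage. In granulocytes and monocytes these were 8 of 22, a share near the 33.2% of all genes. Mpo, the peroxidase of azurophil granules, Ctsg, a granule protease, Ltf and Ngp, proteins of secondary granules, and S100a8 and S100a9, the subunits of calprotectin, were all undetected. So were Cebpa and Cebpe, the transcription factors that open and complete granulocyte differentiation. The granule protease Elane was nevertheless detected in all 8 channels.

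Mast cells and basophils had 6 of 9 in no channel, against 33.2% of all genes. The list was Cpa3, the mast cell carboxypeptidase, Mcpt8 and Prss34, basophil proteases, Fcer1a and Ms4a2, the ligand-binding and signal-amplifying chains of the IgE receptor, and the transcription factor Gata2. Megakaryocytes had 5 of 9, against the same 33.2%. Here Pf4 and Ppbp, platelet chemokines, Itga2b, the partner of integrin beta 3 in the fibrinogen receptor, and the adhesive proteins Vwf and Thbs1 were undetected.

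Erythroid cells had 6 of 12 in no channel, against 33.2% of all genes. The missing genes were Klf1, Alas2, the erythroid enzyme that opens haem synthesis, Epor, the erythropoietin receptor, Rhag, and the membrane skeleton genes Epb42 and Ank1. Over all 25 undetected markers the processed signal stayed between 3.2 and 25.6 in every channel. A probe of this kind gives only a bound: it was not detectable on these arrays, which does not show that the RNA was absent. These are bulk RNAs, in which fewer cells of a type and less RNA per cell cannot be told apart.

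**Figure D1:**
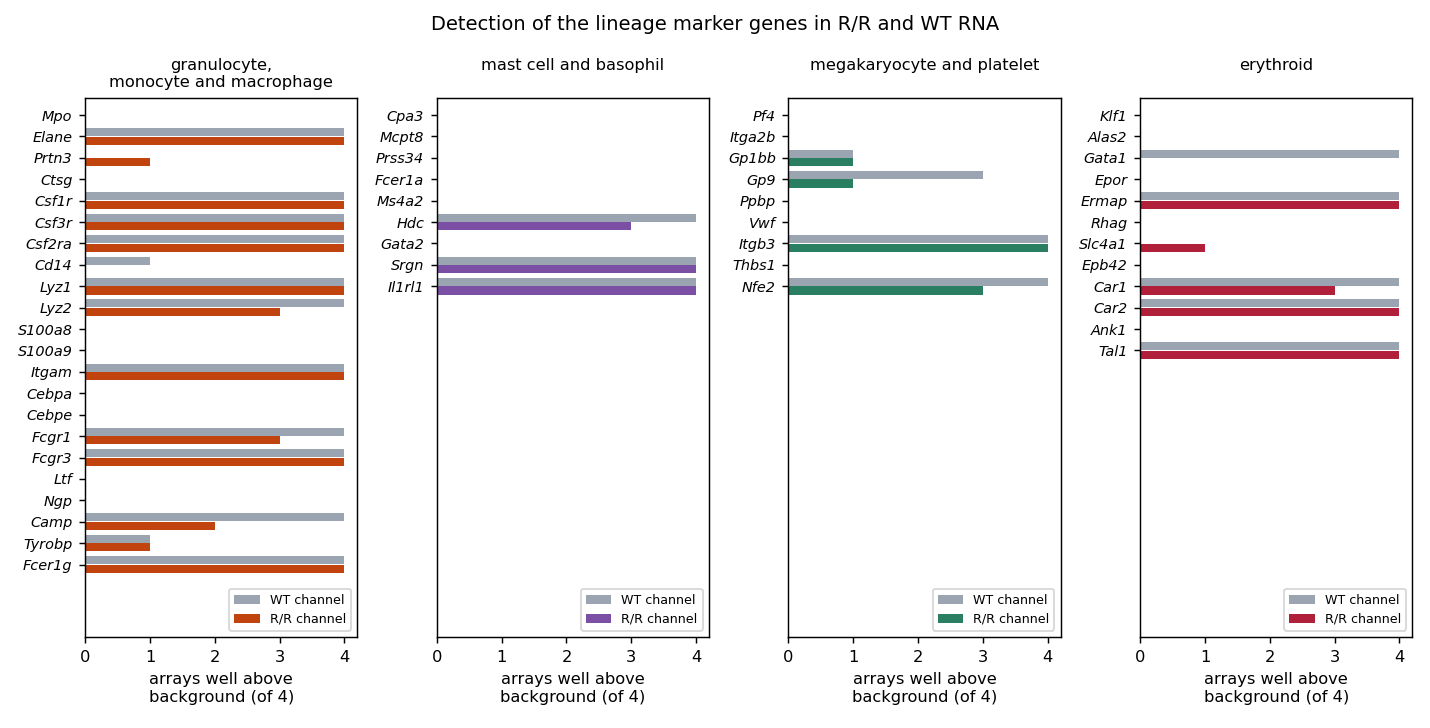
Number of arrays (of 4, horizontal axis) on which the brightest probe of each of 52 lineage markers was well above background, in the WT channel (grey) and the R/R channel (colour), by lineage. A gene without a bar passed on no array, as did 25 of the 52.

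Promoters of 4 markers are printed to show where the sequences of the lineage factors lie relative to genes that were detected or not. RefSeq promoters of build GRCm38.p6, from 250 bases before to 50 bases after the start, were matched for 41 of the 53 markers (46 promoters). The 250 bases before the start are shown 5′ to 3′ on the gene's strand. Capitals mark GATAA, the core bound by GATA factors, or GAGGAAG, a PU.1 core, on either strand. Lyz1 (chr10:117292869-117293118, minus strand) and Fcgr3 (chr1:171059404-171059653, minus strand) are myeloid genes detected in all channels. Ermap (chr4:119189996-119190245, minus strand) is the red cell membrane gene detected in all channels, and Alas2 (chrX:150547167-150547416, plus strand) was detected in none.
Lyz1: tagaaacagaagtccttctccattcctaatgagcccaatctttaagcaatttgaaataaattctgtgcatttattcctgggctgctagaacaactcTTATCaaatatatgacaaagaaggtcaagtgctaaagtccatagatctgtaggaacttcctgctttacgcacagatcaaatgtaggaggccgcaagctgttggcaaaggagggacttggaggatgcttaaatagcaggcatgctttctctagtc
Fcgr3: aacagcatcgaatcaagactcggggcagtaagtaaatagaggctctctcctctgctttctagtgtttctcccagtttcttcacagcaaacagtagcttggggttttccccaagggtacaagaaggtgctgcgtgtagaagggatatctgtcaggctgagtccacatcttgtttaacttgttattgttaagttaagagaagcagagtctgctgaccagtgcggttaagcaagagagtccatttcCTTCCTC
Ermap: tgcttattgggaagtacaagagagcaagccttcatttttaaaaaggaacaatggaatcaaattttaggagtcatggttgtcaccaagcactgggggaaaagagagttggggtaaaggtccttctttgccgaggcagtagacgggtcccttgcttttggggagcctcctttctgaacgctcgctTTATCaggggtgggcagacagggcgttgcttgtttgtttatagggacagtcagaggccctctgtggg
Alas2: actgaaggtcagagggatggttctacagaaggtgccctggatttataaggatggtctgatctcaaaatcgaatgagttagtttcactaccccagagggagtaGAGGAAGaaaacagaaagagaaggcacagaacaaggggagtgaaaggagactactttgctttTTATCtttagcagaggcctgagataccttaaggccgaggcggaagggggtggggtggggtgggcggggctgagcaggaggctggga

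In these windows Lyz1 had 1 GATAA match 154 bases before the start, Ermap had 1 at 67 bases and Alas2 had 1 at 86 bases, each on the opposite strand. The GAGGAAG match lay 7 bases before the start in Fcgr3, on the opposite strand, and 148 bases before it in Alas2. Across the 300-base windows GATAA was found in 19 of 46 marker promoters (41.3%) and in 25.4% of 32851 promoters. It was in 7 of 9 erythroid promoters (77.8%) and 6 of 12 mast cell promoters (50%). Megakaryocyte promoters held it in 2 of 5 (40.0%), and granulocyte and monocyte promoters in 4 of 20 (20.0%). GAGGAAG was in 15 of 46 (32.6%) against 13.6% of all, and in 11 of the 20 granulocyte and monocyte promoters (55.0%), 3 of 5 megakaryocyte promoters (60.0%), 1 of 9 erythroid promoters (11.1%) and 0 of 12 mast cell promoters. CCACACCC, the KLF1 core, was in 1 of 46 (2.17%) against 3.56%. The palindrome TTGCGCAA, bound by C/EBP factors, was in 0 of 46 against 0.183%. Each motif was searched on both strands, and no motif is part of another.

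Detected and undetected markers both held these letters. Of 21 promoters of detected markers 7 held GATAA (33.3%), and of 24 promoters of undetected or partly detected markers 12 did (50%). The numbers for GAGGAAG were 8 of 21 (38.1%) and 7 of 24 (29.2%). The promoter of Cd68, without a matched probe, is in neither set. A match describes letters in a window and was not tested as a binding site.

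None of the 22 detected markers differed between R/R and WT in the limma test. The test compared log2 ratios of R/R over WT with a term for genotype and one for dye, over 20051 detected genes and unnamed transcripts, at a Benjamini-Hochberg adjusted p under 0.05. It called 0 of 22 higher, where 0.15% of all genes were called, and 0 of 22 lower, where 0.374% were called. At an unadjusted p under 0.05 limma gave 3 of 22 (13.6%: Fcgr3, Itgb3 and Srgn, each higher), against 15.4% of all genes. The smallest adjusted p of a marker was 0.122.

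The direction was evenly divided. The fitted value was above 0 for 11 markers and below 0 for the other 11, with a median of -0.023 beside -0.016 over all genes tested. On all 4 arrays the ratio was above 0 for 2 markers (9.09%, Fcgr3 and Itgb3), against 14.6% of genes. It was below 0 on all 4 arrays for 2 others (9.09%, Gata1 and Car1), against 16.2%. Both were dim: Gata1 was well above background on 0 of 4 arrays in R/R and Car1 on 3. The Car1 ratio in the pool was -0.0034. The fitted values ran from -0.45 (Csf3r) to 0.50 (Car2). A constant of 50 was added to each background-corrected signal before the ratio was taken, which draws the ratios of dim probes towards 0.

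**Figure D2:**
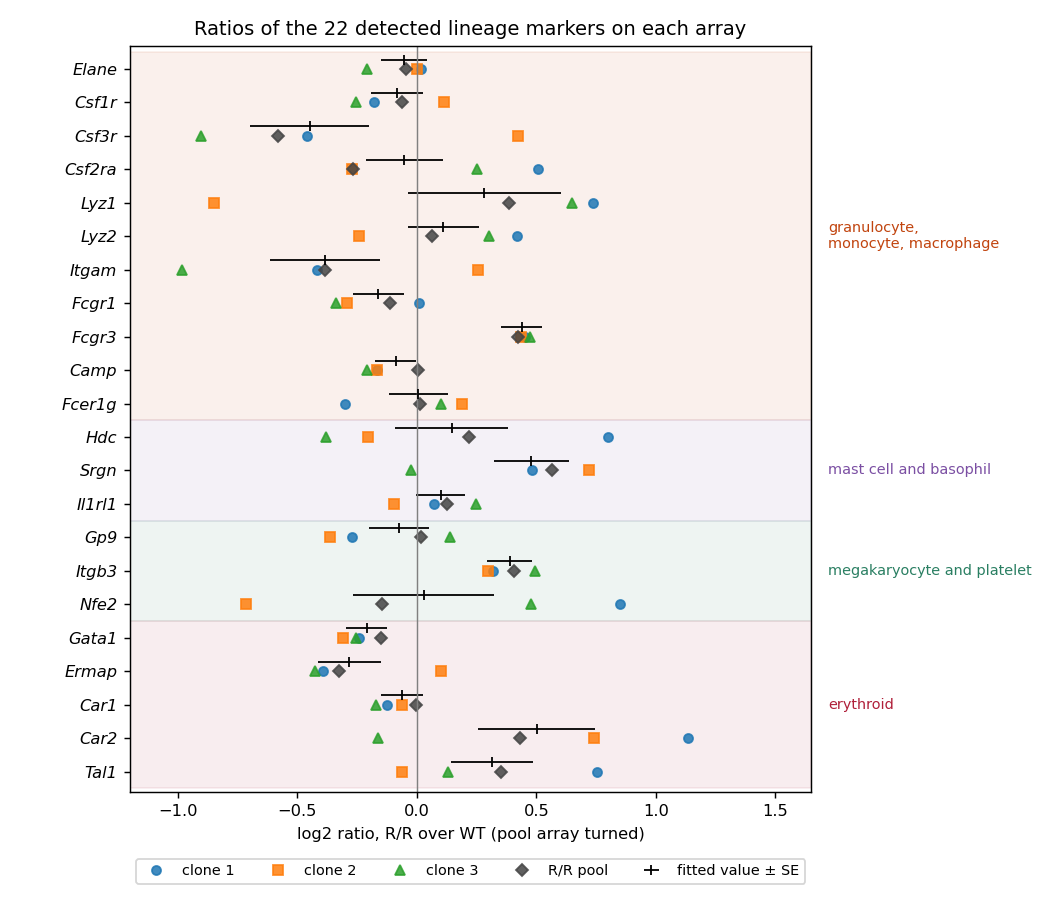
Log2 ratio of R/R over WT (horizontal axis) of the 22 detected lineage markers on each of the 4 arrays, with the fitted value and its standard error as a cross with a bar. Fcgr3 and Itgb3 lie above 0 on all 4 arrays with little spread, while Lyz1, Nfe2, Csf3r, Car2, Itgam and Hdc spread over more than 1 unit between clones.

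Among the granule proteins of granulocytes, Elane encodes neutrophil elastase. Its processed signal in R/R was 173, 172, 137 and 152 for clones 1, 2 and 3 and the pool, against 179, 167, 156 and 143 in the WT channel of the same arrays. The R/R readings overlapped those of the WT pool, and the fitted log2 ratio was -0.05 ± 0.10 (SE, adjusted p = 0.813, limma). Camp, the cathelicidin precursor, gave log2 ratios of -0.16, -0.17 and -0.21 in the clones and 0.0041 in the pool. The clones sat together below 0 and the pool did not, with a fitted value of -0.09 ± 0.09 (adjusted p = 0.651, limma). Its R/R channel was well above background on 2 of 4 arrays and its WT channel on 4.

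Lysozyme M and lysozyme P, the bacteriolytic enzymes encoded by Lyz2 and Lyz1, differed mainly between clones. Lyz1 signal was 292 in clone 1, 38.1 in clone 2, 239.7 in clone 3 and 168 in the R/R pool, and WT gave 139, 141, 114 and 121 beside them. Clones 1 and 3 and the R/R pool were above the WT pool, and clone 2 was below it. The log2 ratios were 0.74, -0.85, 0.65 and 0.39, which fitted to 0.28 ± 0.32 (adjusted p = 0.705, limma). Without clone 2 the value was 0.54 and without clone 1 it was 0.14, neither called. Lyz2 gave log2 ratios of 0.42, -0.24, 0.30 and 0.06 and a fitted value of 0.11 ± 0.15 (adjusted p = 0.75, limma). Its clone 2 signal of 13.9 was not well above background, so the ratio there is not an exact value. The 2 genes are near-identical neighbours whose probes may share target RNA, so which of them the signal comes from is uncertain.

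The growth factor receptors of the granulocyte and monocyte lines had fitted values below 0 and clones on both sides of 0. Csf3r, the receptor for G-CSF, had a signal of 69479, 107259, 58419 and 73050.2 in R/R and 98116, 85786, 113808 and 90134 in WT. Clone 2 was above the WT pool and the other 3 R/R samples were below it. The log2 ratios of -0.46, 0.42, -0.90 and -0.58 fitted to -0.45 ± 0.25 (adjusted p = 0.444, limma).

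Csf2ra, the alpha chain of the GM-CSF receptor, gave R/R signals of 883, 464, 896 and 564 against WT signals of 641, 609, 757 and 673. Clones 1 and 3 were above the WT pool, and clone 2 and the R/R pool were below it. The log2 ratios were 0.51, -0.27, 0.25 and -0.27, with a fitted value of -0.05 ± 0.16 (adjusted p = 0.897, limma) that turned positive when the dye term was left out (0.055) or the clones were taken alone (0.16). Csf1r, the M-CSF receptor, gave -0.18, 0.11, -0.26 and -0.06 on its brightest probe, fitted to -0.08 ± 0.11 (adjusted p = 0.739, limma). Another detected Csf1r probe ran the opposite way, at 0.22, -0.31, 0.31 and 0.07, so the probes of this gene disagree on the clones.

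Itgam encodes CD11b, the alpha chain of the Mac-1 integrin of myeloid cells. Its brightest probe read 28120, 42890.2, 22786 and 28125 in R/R and 35072, 34309.9, 42201 and 36479.7 in WT. Clone 2 was above the WT pool and the other R/R samples below it, with log2 ratios of -0.42, 0.26, -0.98 and -0.39 and a fitted value of -0.38 ± 0.23 (adjusted p = 0.473, limma). The other Itgam probes, with WT signals between 16.5 and 33.1, gave 0.33, 0.27, 0.16 and -0.07 on one and -0.03, 0.11, 0.03 and -0.03 on the other. The bright and the dim probes of Itgam therefore disagree. The fitted value was -0.10 as the mean of the probes, and -0.23 on the bright probe without clone 3.

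Genes with clone patterns like those of Csf3r and the bright Itgam probe were sought among 12300 tested genes with a symbol. Among so many, some near matches are likely, and how near the closest matches of other genes lie was not measured. The 4 genes nearest to Csf3r over the 4 arrays were Triobp, Pdik1l, Pappa and Smo, at root mean square differences of 0.03 to 0.04 on the log2 scale. Triobp, for example, read -0.43, 0.44, -0.86 and -0.56. Nearest to Itgam were Pdcd4, Hexim2, Heatr3 and Dnajc5, at 0.03 to 0.06. Of the brightest genes on the arrays Elk1 read -0.22, 0.79, -0.67 and -0.63 and Ttc38 read -0.19, 0.80, -0.74 and -0.61. Glrx2 read -0.15, 0.54, -0.83 and -0.44, and Kctd14 read -0.01, 0.69, -0.69 and -0.67. Slc10a1 read 0.04, 1.03, -0.62 and -0.83, and Rn4.5s read 1.27, 1.14, -0.22 and -0.28. These last genes were above 0 in clone 1, where Csf3r was below it. The median of 284 genes as bright as Csf3r was -0.03, 0.05, -0.0045 and -0.18. The part of probe brightness in the Csf3r and Itgam values was not tested.

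The Fc receptors included the marker with the smallest adjusted p. Fcgr3, a low-affinity IgG receptor of myeloid and NK cells, read 277, 318, 307 and 287 in R/R and 172, 209.9, 183 and 193 in WT. All 4 R/R samples were above all 4 readings of the WT pool. The log2 ratios of 0.45, 0.44, 0.48 and 0.42 spanned 0.04 between clones, and the fitted value was 0.44 ± 0.09, or 1.36-fold (adjusted p = 0.122, limma). Fcgr2b, the inhibitory IgG receptor that B cells express and that is closely related in sequence, gave 0.36, 0.47, 0.21 and 0.43, fitted to 0.39 ± 0.10 (adjusted p = 0.171, limma). Whether the 2 probes share target RNA was not tested.

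Fcgr1, the high-affinity IgG receptor, gave log2 ratios of 0.01, -0.29, -0.34 and -0.11. The R/R signals were 41.8, 26.4, 6.5 and 35.2 against WT signals of 40.6, 57.3, 46.7 and 53.6, and clone 3 was not well above background. The fitted value was -0.16 ± 0.11 (adjusted p = 0.513, limma). Fcer1g, the signalling chain shared by these receptors, gave -0.30, 0.19, 0.10 and 0.02, with a fitted value of 0.0063 ± 0.12 (adjusted p = 0.984, limma).

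The 3 detected mast cell markers are also made by other blood cells. Srgn, the serglycin core protein that packs proteases into granules, read 7491, 8884, 6145 and 8196 in R/R and 5587, 5704.0, 6528 and 5714 in WT. Clones 1 and 2 and the R/R pool were above the WT readings, and clone 3 lay within them. Its log2 ratios of 0.48, 0.72, -0.02 and 0.56 fitted to 0.48 ± 0.16, or 1.39-fold (adjusted p = 0.25, limma).

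Hdc, histidine decarboxylase, which makes histamine, stood out in clone 1. Its R/R signal was 126 in clone 1, 35.2 in clone 2, 7.1 in clone 3 and 53.2 in the pool, while WT read 32.4, 54.0, 32.2 and 40.6. Clone 3 was not well above background. The log2 ratios were 0.80, -0.20, -0.38 and 0.22 (fitted 0.15 ± 0.24, adjusted p = 0.795, limma), and without clone 1 the fitted value was -0.036. Il1rl1, the IL-33 receptor, gave 0.07, -0.10, 0.25 and 0.12, a spread that crossed 0 (fitted 0.10 ± 0.10, adjusted p = 0.677, limma).

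Of the megakaryocyte markers Itgb3, integrin beta 3, was higher on every array without passing the test. Its R/R signals were 185, 185, 213 and 188 and its WT signals 120.4, 126, 131 and 126. The R/R readings thus did not overlap those of the WT pool. As log2 ratios, values of 0.32, 0.30, 0.49 and 0.40 fitted to 0.39 ± 0.09, or 1.31-fold (adjusted p = 0.165, limma). A dimmer Itgb3 probe gave -0.08, 0.12, 0.02 and 0.02, and the mean of both probes fitted to 0.20. The partner chain Itga2b was detected in no channel.

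Nfe2, the large subunit of a transcription factor needed for platelet release, differed widely between clones. Its R/R signal was 158 in clone 1, 7.7 in clone 2, 90.7 in clone 3 and 60.1 in the pool, against WT signals of 55.2, 56.4, 42.0 and 68.5. Clones 1 and 3 were above the WT pool, and clone 2 was not well above background. The log2 ratios of 0.85, -0.72, 0.48 and -0.15 gave a fitted value of 0.03 ± 0.30 (adjusted p = 0.97, limma). Gp9, a chain of the von Willebrand factor receptor, gave -0.27, -0.37, 0.14 and 0.02 (fitted -0.07 ± 0.13, adjusted p = 0.809, limma) and was well above background in R/R on 1 of 4 arrays.

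Gata1, the master regulator of the erythroid lineage, was the one marker that met the detection rule in WT and passed on no R/R array. Its R/R signal was 10.2, 9.0, 5.8 and 6.4, and its WT signal was 24, 24.9, 27.7 and 24.9. The R/R readings did not overlap those of the WT pool, and none of them was well above background. The log2 ratios were -0.24, -0.31, -0.25 and -0.15, with a fitted value of -0.21 ± 0.09 (adjusted p = 0.333, limma). Gata1 entered the test through its WT channel alone, so the detection rule favours a ratio below 0. The WT signals were themselves low, as an undetected marker reached 25.6. Set against the lowest signal called above background, the WT signal gave a bound of 1.12-fold, which was not tested. From the scanner's own log ratios, which carry no added constant, the value was -1.80 (adjusted p = 0.15, limma), so the size of this difference is not fixed by these arrays.

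Tal1, a partner of GATA1, read 386, 209.5, 249 and 268 in R/R and 180.2, 212, 192 and 206 in WT. Clone 1 was well above the other readings, and clone 2 lay within the WT range. Log2 ratios of 0.75, -0.06, 0.13 and 0.35 fitted to 0.31 ± 0.17 (adjusted p = 0.438, limma). Without clone 1 the value was 0.19.

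Car2, carbonic anhydrase 2, had the highest fitted value of all the markers. It read 12054, 9034, 5276 and 7979 in R/R and 5058, 5120.2, 5909 and 6585 in WT. Clones 1 and 2 and the R/R pool were above every WT reading, and clone 3 lay among them. The log2 ratios of 1.13, 0.74, -0.16 and 0.43 fitted to 0.50 ± 0.25, or 1.42-fold (adjusted p = 0.405, limma). The paralog Car1, an erythroid enzyme, gave -0.12, -0.06, -0.17 and -0.0034, fitted to -0.06 ± 0.09 (adjusted p = 0.765, limma), and was not well above background in clone 3.

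Ermap, a red cell membrane protein of the immunoglobulin family, read 357, 451, 312 and 369 in R/R and 533, 449, 460.0 and 462 in WT. Clone 2 was level with the WT pool and the others were below it. The log2 ratios were -0.39, 0.10, -0.43 and -0.33, with a fitted value of -0.28 ± 0.13 (adjusted p = 0.389, limma).

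The span between R/R clones was wider for the median marker than for the median gene. For the 3 clones, log2 ratios spanned a median of 0.52 over the 22 markers and 0.32 over all genes tested. A span of at least 1, a limit set after the values were seen, was reached by 6 of 22 markers (27.3%: Lyz1, Nfe2, Csf3r, Car2, Itgam and Hdc) and by 5.04% of all genes. Some other lists had wider medians: 0.70 over the B-lineage genes and 0.73 over the T and NK genes. Also wider were the further myeloid transcription factors and receptors (0.57) and the stem and progenitor genes (0.55). The rest were narrower: 0.49 over red cell genes, 0.42 over further mast cell genes and over globin genes, and 0.36 over erythroid regulators. Further megakaryocyte genes had 0.34, and myeloid effector genes and haem and iron genes had 0.33 each. For 16 of 22 markers (72.7%) the span was wider than that of the median gene. The R/R pool lay between the lowest and the highest clone for 18 of 22 (81.8%), against 54.8% of all genes.

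**Figure D3:**
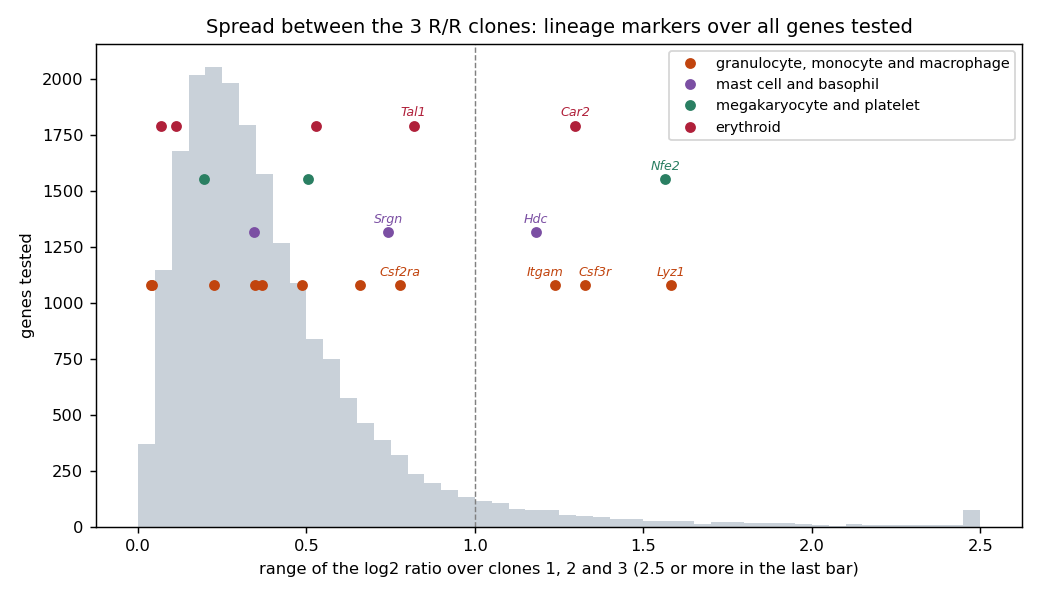
Histogram of the range of the log2 ratio over clones 1, 2 and 3 for all genes tested (vertical axis, number of genes), with the 22 lineage markers as points in rows by lineage, whose height has no scale. The dashed line marks a range of 1, passed by 6 of 22 markers and 5.04% of all genes.

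No single clone was low throughout. Clone 2 was the lowest of the 3 for 10 of 22 markers (45.5%), against 33.4% of all genes. Clone 3 was the lowest for 11 (50%, against 40.3%) and clone 1 for 1 (4.55%, against 26.2%). Clone 1 was the highest for 11 (50%), where it was highest for 28.1% of all genes. The lows of clone 2 in Lyz1, Lyz2, Csf2ra and Nfe2 stood beside lows in some, but not all, B-lineage genes. Rag1 and Rag2, the recombinase genes, gave -1.35 and -1.36 in clone 2 and between 0.05 and 0.84 in clones 1 and 3. Clone 2 was the lowest for 7 of the 11 B-lineage genes (63.6%), against 33.4% of all genes. It was the highest for 2 of them (18.2%, against 38.4% of all genes), Pax5 at -0.17 and Cd24a at 0.94.

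The summed signal of the B-lineage list was 141561 in clone 2, 197463 in clone 1, 229105 in clone 3 and 172342 in the R/R pool, and 136857 to 159170 in the WT channel. Vpreb1 alone read 75751 in clone 2, 111344 in clone 1, 136049 in clone 3 and 90287 in the R/R pool. In the WT channel it read 70209 to 86498, so the sum largely follows this gene. The part of the B-lineage signal in the marker values was not tested.

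**Figure D4:**
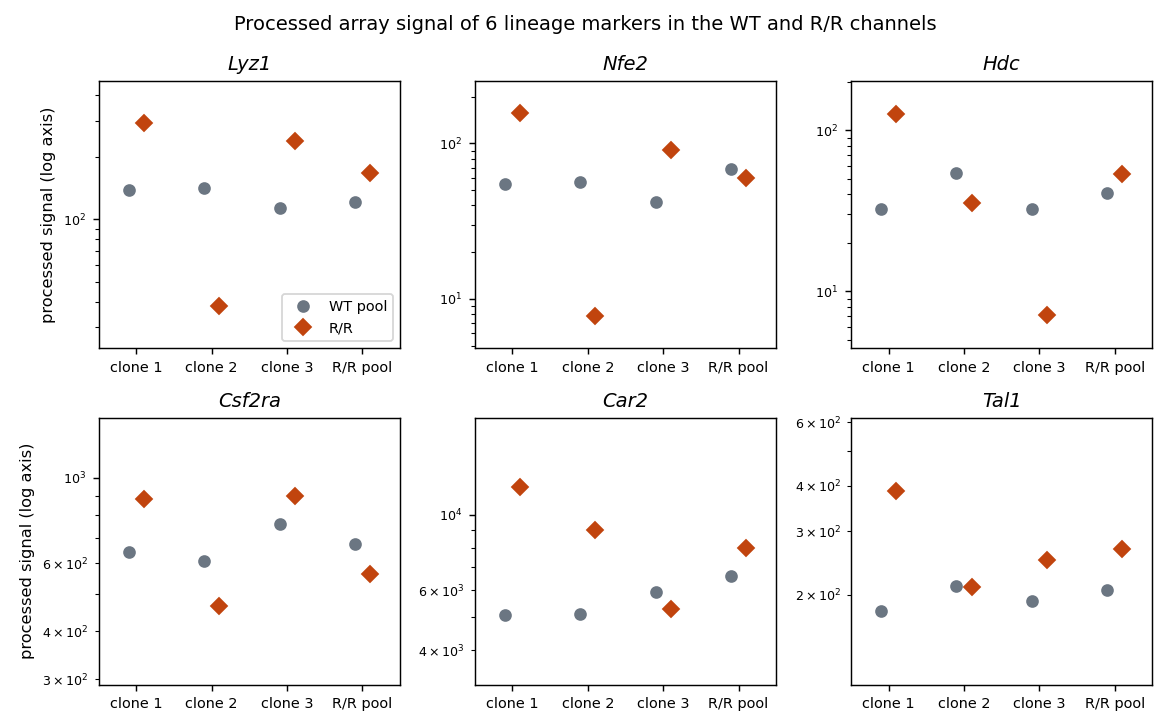
Processed signal (vertical log axis, its own scale in each panel) of 6 markers in the WT channel (circles) and the R/R channel (diamonds) of each array. In Lyz1 and Nfe2 clone 2 falls below the WT pool while clones 1 and 3 lie above it, and in Hdc and Tal1 clone 1 is the highest.

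Further genes of the same lineages gave the wider picture, with none called except 2 globins. Of 12 detected myeloid transcription factors and receptors limma called 0, with 2 fitted values above 0 and 10 below, and a median of -0.15. The lowest of them was Cebpb, a C/EBP factor of macrophages and stress granulopoiesis, at -0.49, -1.08, -0.76 and -1.06 (fitted -0.92 ± 0.13, adjusted p = 0.0715, limma). The chemokine receptor Ccr2 fitted to -0.29 and the pattern receptor Tlr2 to -0.24, both below 0 on all arrays. At an unadjusted p under 0.05 there were 1 higher and 3 lower of the 12, where 15.4% of all genes passed in either direction.

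Myeloid effector genes were balanced, with 0 of 13 called, 6 above and 7 below 0 and a median of -0.015. Ctsh, a lysosomal cathepsin, had the smallest adjusted p (0.26, 0.80, 1.22 and 0.77, fitted 0.76 ± 0.19, adjusted p = 0.167, limma). Lcp1, an actin bundler of leukocytes, fitted to -0.28, and Cyba, a subunit of the phagocyte oxidase, and Ctss, another cathepsin, fitted to 0.23 and 0.17.

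Of 7 detected mast cell and basophil genes 0 were called, with 3 above 0 and 4 below. Hpgds, which makes prostaglandin D, gave 0.65, 0.13, 0.25 and 0.62 and was well above background on 4 arrays in R/R and 1 in WT (fitted 0.48 ± 0.13, adjusted p = 0.185, limma). It entered the test through its R/R channel alone, so the detection rule favours a ratio above 0. With WT signals of 14.5 to 23.4 the ratio is not an exact value. Il3ra, the IL-3 receptor alpha chain, spread from -0.59 in clone 2 to 1.89 in clone 3. Cd63 and Slc18a2 fitted to -0.20 and -0.18. Kit, the stem cell factor receptor on which mast cells depend, was detected in no channel.

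Of 5 detected megakaryocyte genes 0 were called, 1 above and 4 below 0. Their fitted values stayed between -0.15 (Treml1, a receptor of platelet granules) and 0.10 (Fli1, an ETS factor of the lineage), with Mef2c at -0.12 and Gfi1b at -0.13. Undetected by the rule were 10 of the 15, among them Gp1ba, Gp5, Tubb1 and Selp.

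The embryonic globin Hbb-bh1 and the adult Hbb-bt were the only called genes of these lists, both lower in R/R. Hbb-bh1 read 162, 140.1, 121 and 142 in R/R and 687, 735, 751 and 758 in WT, with log2 ratios of -1.54, -1.76, -1.96 and -1.87 (fitted -1.81 ± 0.11, adjusted p = 0.0109, limma). Hbb-bt gave -1.40, -1.80, -2.40 and -1.82 (fitted -1.84 ± 0.20, adjusted p = 0.0416, limma). The beta globin genes are near copies whose probes may share RNA. Hba-a2, an alpha globin, fitted to 0.02 ± 0.09 (adjusted p = 0.947, limma), and 4 of the 7 globins with a probe were detected in no channel.

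The haem and iron genes, which all cells use, were detected 17 of 17, and 0 were called. Their fitted values were above 0 for 11 and below 0 for 6, with a median of 0.11. Fech, ferrochelatase, the last enzyme of haem synthesis, was the nearest to a call at 0.72, 0.75, 0.91 and 0.58 (fitted 0.69 ± 0.09, adjusted p = 0.0606, limma). Alas1 and Alad, the first enzymes of the pathway, fitted to 0.27 and 0.28, and Hmox1, which degrades haem, to -0.30.

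Of 18 red cell membrane and enzyme genes 11 were in no channel (33.2% of all genes were), and 0 of 6 tested were called. Cd36, a scavenger receptor that early erythroid cells and macrophages carry, gave -0.46, -0.51, -1.41 and -0.76 (fitted -0.78 ± 0.20, adjusted p = 0.185, limma). In clone 3 its signal of 5.6 was not well above background, so the ratio there is not an exact value. Slc2a1, a glucose transporter, fitted to -0.33, and Xk and Bpgm to 0.27 and 0.08. Xk was well above background on 3 arrays in R/R and 0 in WT, so the detection rule favours a ratio above 0.

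All 14 erythroid regulators were detected, most of which B cells also express, and 0 were called, with 4 above 0 and 10 below. Lmo2 and Lyl1, members or relatives of the complex that TAL1 and GATA1 form, gave -0.99, -1.56, -0.33 and -0.79 for Lmo2 (fitted -0.88 ± 0.23, adjusted p = 0.185, limma) and -0.50, -0.53, -0.36 and -0.52 for Lyl1 (fitted -0.49 ± 0.09, adjusted p = 0.108, limma). Sox6 and Klf3, repressors of globin genes, fitted to 0.50 and 0.32, and Sox6 was not well above background in R/R clone 1.

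The genes of other cell types had no call either. Of the 11 B-lineage genes the smallest adjusted p belonged to Cd24a, a surface glycoprotein of early B cells (0.70, 0.94, 0.51 and 0.63, fitted 0.67 ± 0.11, adjusted p = 0.0943, limma). Blnk, an adaptor of the pre-B receptor, fitted to 0.42, Il7r, the IL-7 receptor chain, to 0.48, and Cd79b, a signalling chain of the B cell receptor, to -0.20. Of the 6 detected T and NK genes the kinase gene Zap70 fitted to -0.56 ± 0.19 (adjusted p = 0.267, limma), Nkg7 to -0.18, Cd4 to -0.17 and Lck to 0.38. The 4 detected stem and progenitor genes fitted to -0.35 (Slamf1), -0.16 (Flt3), -0.19 (Ly6a) and 0.02 (Hlf).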

How the data were processed

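The 4 two-colour arrays were read. The deposited intensity columns hold, per the file headers, median brightness of spot and local background and processed signals corrected for background and dye, from Agilent Feature Extraction 11.5.1.1 (11.5 per the submitters' processing notes). The log10 column is, per the file headers, the scanner software's Cy5 over Cy3 ratio, an alternative here. It was 0 in 19.4% to 27.6% of spots. The log2 values deposited by the authors correlate by row order with the ratios computed here at 0.989 to 0.997 across spots, with column medians of 0, 0.0040, -0.0011 and -0.0014. Their normalisation and centring are not given in the sources used here, and their rows name no probe, so no marker was read from them.

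In R 4.3.3 with limma 3.58.1, median signals were background-corrected (normexp, offset 50) and loess-normalised within arrays. Control spots carried no weight, flagged spots were dropped and spots of a probe averaged. RefSeq accessions named 27656 of 55681 probes, and 28025 stayed unnamed. The 26449 probes well above background in a genotype on at least 3 of 4 arrays gave 20051 genes by brightest probe. The genotype value weighs the clone mean and the dye-swapped pool equally, with 2 residual degrees of freedom from the clones. Two-sided p-values were adjusted by Benjamini-Hochberg, and the procedure was tested on simulated data. The small number of arrays limits the precision.

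The markers and lists were chosen with earlier results of these data known. All markers detected by the rule are given by array, and of each other list the called genes and the 4 with the smallest p. Genes with like clone patterns and printed promoters were chosen after values were seen. Of the B-lineage list, 1 gene is not reported here.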

Additional observations from a re-analysis of the deposited data

Results flagged for a closer look

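Camp, the cathelicidin precursor, gave a log2 ratio of 0.0041 on the R/R pool array and a mean of -0.18 on the clone arrays, where all 3 were below 0. The difference between pool and clones was not tested. The dyes were swapped on the pool array, and Camp was well above background in R/R on 2 of 4 arrays.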

How the results depend on the processing

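No marker was called under the alternatives run, except that leaving out the dye term called 2 (Fcgr3 at 0.45, adjusted p = 0.0179, and Itgb3 at 0.38, adjusted p = 0.0356, limma), where calls over all genes rose from 30 higher and 75 lower to 490 and 650. The smallest adjusted p of a marker (limma) was between 0.0848 and 0.592 in the other settings. Signs of small values turned. Elane was 0.0082 by scanner log ratios. Csf2ra was 0.16 with the clones alone and 0.055 with no dye term. Fcer1g was -0.0091 with median centring and -0.0024 with the clones alone. Nfe2 was -0.14 by scanner log ratios, -0.0058 with offset 16 and -0.062 with median centring. Leaving out each clone in turn moved Csf2ra from -0.14 to 0.055, Fcer1g from -0.041 to 0.080, Hdc from -0.036 to 0.26 and Nfe2 from -0.13 to 0.26. Without one clone uncalled values also moved by over 1.5 times for Lyz1 (0.14 to 0.54), Lyz2 (0.047 to 0.21), Itgam (-0.23 without clone 3), Tal1 (0.19 without clone 1), and the values within 0.1 of 0 of Elane, Csf1r, Il1rl1 and Gp9. Itgam was -0.10 and Csf1r -0.0059 as the mean of probes. Markers of 1 sign on all arrays numbered 4, became 2 with the strict filter and 11 with clones 1 and 2 averaged, and 6 to 12 when a clone was left out, with fewer arrays to share a sign; without clone 2 it was 12. Detection ranged from 21 to 27 markers by the number of arrays asked for. Over all genes, calls were 2 higher and 28 lower with median centring, 6 and 44 by scanner log ratios, 20 and 62 without clone 2, 12 and 49 without clone 1, and 88 and 176 without clone 3. The deposited log2 table was not run for markers, and the offset limits dim probes such as Gata1 and Nfe2. R/R and WT were compared within each array. The R/R clone and R/R pool groups share fewer than 2 replicate numbers, so no pairing between them was used.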
